A study of Mus musculus with 4 samples.

Results

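The genes described here are 47 genes of the lysosome, the vacuolar proton pump (V-ATPase) and autophagy, out of 53647 mouse genes. They were picked by function, with earlier results of these data known. RNA sequencing had measured them in 4T1 cells, a BALB/c mammary carcinoma line. They comprise 11 lysosomal proteases and hydrolases, 6 genes for lysosomal membrane and lipid transport proteins, 6 subunits of the V1 sector and 4 of the V0 sector of the V-ATPase, 3 transcription factors of the TFEB family, 9 genes for the start of autophagy and its conjugation enzymes, 5 genes of the LC3 and GABARAP family and 3 autophagy receptors. All 47 had a row in the tables, and 46 passed the filter on low counts; the exception was Ctss, the cysteine protease cathepsin S. The cells, whose genotype is labelled WT, received mRNA that encodes either uniSTING, a designed protein meant to act like the innate immune adaptor STING, or the fluorescent protein EGFP, the group called Mock. Both groups therefore carried delivered mRNA, given with a transfection reagent or in lipid nanoparticles. Which carrier went with which library, the dose and the time are not in the labels, and delivery of either mRNA was not checked here. Each group held 2 libraries, numbered as preparations 1 and 2 and called replicates here.

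Lysosomes are acidic compartments in which hydrolases degrade proteins, lipids and sugars, and the V-ATPase pumps the protons that acidify them. Its V1 sector hydrolyses ATP in the cytosol, and its membrane-bound V0 sector conducts the protons. In autophagy, the ULK1 kinase complex and the BECN1 lipid kinase complex start a membrane that ATG7, ATG3 and the ATG12-ATG5-ATG16L1 complex decorate with lipid-linked LC3 and GABARAP proteins. Receptors such as OPTN, NBR1 and TAX1BP1 bring cargo to it. TFEB, TFE3 and MITF are related transcription factors that activate many lysosomal and autophagy genes, and mTORC1 on the lysosome holds them back by phosphorylation, which transcript levels do not measure. STING is linked to these parts of the cell. After activation it leaves the endoplasmic reticulum, drives LC3 lipidation through the V-ATPase and ATG16L1, and is degraded in lysosomes.

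The Mock libraries held 17502694 and 22039546 counts, and the uniSTING libraries 18843543 and 25071840. The variance between the 2 libraries of a group was 1.47 times that of counting noise in Mock and 1.51 times in uniSTING, over 10836 genes with at least 200 counts, against 14.1 and 17.3 times between same-numbered libraries of the 2 groups. No label ties the preparations to separate cultures, and the file headers give both libraries of a group a shared prefix of unstated meaning, so each p-value reflects only how far these libraries spread, and that spread may be technical. As 4T1 is an epithelial carcinoma line, its keratin genes Krt8 and Krt18 were abundant (1271 and 1225 CPM in Mock, where CPM is the read count scaled to library size), and Epcam was at 285 CPM. Macrophage markers were low. Their 9 genes summed to 16.3 and 9.05 CPM in the Mock libraries and 27.1 and 10.1 CPM in the uniSTING libraries, with Itgam and Fcgr1 at no count. Of these markers, Lyz2 had 155 and 290 counts in the replicate 1 libraries of Mock and uniSTING and none in either replicate 2 library. Ptprc followed the same pattern with 8 and 19 counts. The T and NK cell, fibroblast and endothelial lists summed to at most 5.06, 14.2 and 1.87 CPM in a library. The fibroblast markers Col3a1 (6 and 21 counts) and Dcn (7 and 13 counts) were also found only in the replicate 1 libraries of Mock and uniSTING. Pdgfra, of the same list, was counted in every library. In whole-culture RNA, more cells of a kind and more RNA per cell cannot be told apart.

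More of the 47 genes were higher in uniSTING than lower. Of the 46 genes tested, 27 rose and 4 fell, and 15 did not pass (edgeR quasi-likelihood test, adjusted p under 0.05 over all 12972 genes tested). The risers were 58.7% of the tested genes on the list, where 24.9% of all tested genes rose. The genes that fell were 8.70%, where 25.4% of all tested genes fell. Their median log2 fold change was 0.20, against 0.006 over all tested genes, and it was 0.21 between the replicate 1 libraries and 0.18 between those of replicate 2. The changes were small. Past the test with at least a 1.25-fold change were 14 genes that rose and 1 that fell, Ulk1, where 12.7% of all tested genes rose and 13.3% fell by that rule (26.0% in either direction). The uniSTING libraries did not overlap the Mock libraries in 41 of the 46 genes, where this held for 75.1% of all tested genes. Within both replicate numbers 32 of the 46 genes were higher in uniSTING and 10 lower, and 4 were mixed, against 5460, 5281 and 2231 of all tested genes. The summed level of the 47 genes was 4469 and 4468 CPM in Mock and 5225 and 5185 CPM in uniSTING. The list was chosen by function with earlier results of these data known, and no list test was made.

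**Figure D1:**
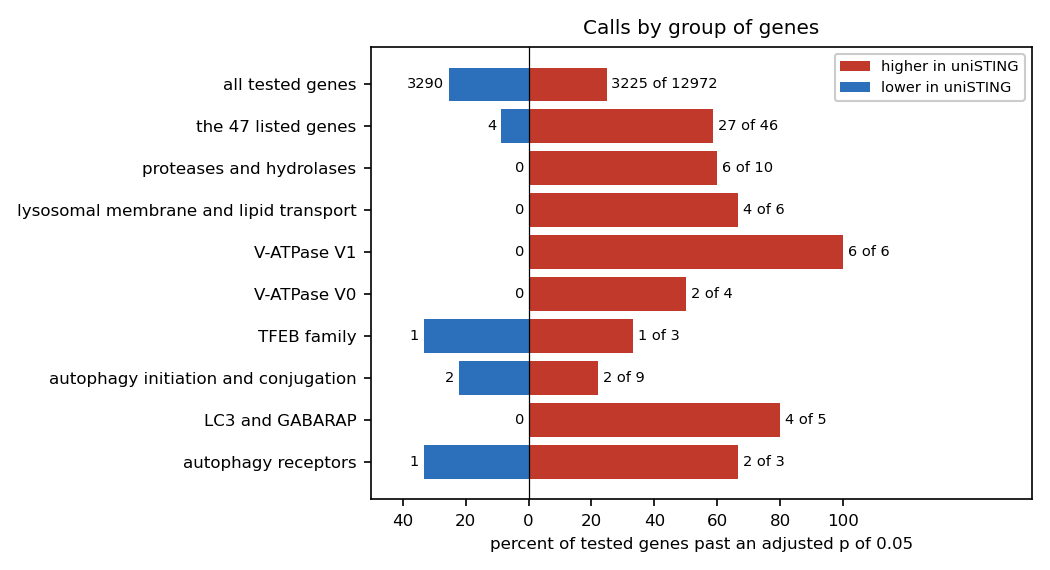
Percentage of tested genes past an adjusted p of 0.05 in edgeR, higher in uniSTING to the right and lower to the left, for all tested genes, the 47 listed genes and each group of them. Numbers beside the bars are genes called, higher out of tested on the right and lower on the left; all 6 V1 subunits rose, while the autophagy initiation and conjugation group had 2 genes higher and 2 lower.

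TFEB, TFE3 and MITF recognise an E-box, the letters CACGTG, which in lysosomal genes is often extended by flanking bases, and the promoters of the 47 genes were searched for it. RefSeq promoter windows of the GRCm38.p6 build, from 250 bases before to 50 after an annotated start, were at hand for 37 of the 47 genes (48 windows). CACGTG, which reads the same on both strands, was in 13 of the 48 windows (27.1%), 1 for each of 13 genes, and in 7.15% of all 32851 windows. The longer TCACGTGA, which contains it and is also its own reverse complement, was in 7 of the 48 windows (14.6%) and in 0.974% of all windows. The same 8 letters with G before and C after them were in none of the 48 and in 0.326% of all windows. For comparison, GAAA repeated after a gap of any 2 letters, a core of interferon-stimulated response elements searched on both strands, was in 4 of the 48 windows (8.33%; Atp6v1d, Ctss, Lamp1 and Nbr1) and in 3.44% of all. The motif is known from lysosomal genes, so its share in a list of such genes is no independent result. The set of all windows was not limited to genes tested here, and no share over tested genes was taken. A match describes letters only and is no evidence of binding.

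The genes with TCACGTGA are given as 30 bases around it, with those 8 letters in capitals, written 5′ to 3′ on the gene's strand. They include 5 genes that rose (Ctsd, Mcoln1, Atp6v1a, Atp6v0d1 and Gla) and 2 that did not pass (Ctsa and Atg3).
Ctsd, chr7:142387908-142387937, minus strand: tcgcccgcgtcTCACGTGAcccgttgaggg
Mcoln1, chr8:3500462-3500491, plus strand: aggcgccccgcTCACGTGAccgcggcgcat
Atp6v1a, chr16:44139373-44139402, minus strand: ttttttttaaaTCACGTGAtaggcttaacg
Atp6v0d1, chr8:105566050-105566079, minus strand: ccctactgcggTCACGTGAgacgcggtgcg
Gla, chrX:134601215-134601244, minus strand: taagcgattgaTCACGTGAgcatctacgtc
Gla, chrX:134601182-134601211, minus strand: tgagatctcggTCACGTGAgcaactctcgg
Ctsa, chr2:164833749-164833778, plus strand: tgagcaaactgTCACGTGAtgcagatgctc
Atg3, chr16:45158746-45158775, plus strand: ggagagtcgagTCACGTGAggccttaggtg
The flanks differ between genes, and Gla holds 2 copies, which begin 228 and 195 bases before its start. Ctsa holds a second copy just after its start.

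Lamp1 is shown at greater length because its window held the most copies of the short motif, 4 within the last 61 bases before the start, although none carries both flanking letters. Mcoln1 had 2, beginning 71 and 45 bases before the start, and only the second is part of TCACGTGA. Both stretches cover the 100 bases before the start, with CACGTG in capitals.
Lamp1, chr8:13159061-13159160, plus strand: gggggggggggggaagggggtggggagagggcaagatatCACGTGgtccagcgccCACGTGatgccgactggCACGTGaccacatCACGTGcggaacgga
Mcoln1, chr8:3500419-3500518, plus strand: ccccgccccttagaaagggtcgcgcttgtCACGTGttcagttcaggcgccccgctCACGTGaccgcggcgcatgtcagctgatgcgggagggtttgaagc
Among the 13 genes with CACGTG, 9 rose, none fell and 4 did not pass, and the median log2 fold change was 0.23. Among the 23 tested genes with a window but no CACGTG, 13 rose and 4 fell, and the median was 0.19, with 6 that did not pass. Of all tested genes, 24.9% rose and 25.4% fell. Among the risers with CACGTG, Lamp1, Atp6v0d1 and Atg5 did not pass once the dependence of fold changes on exon length was removed. The set without CACGTG was not counted in that fit. The difference between these 2 sets was not tested, and their medians were close.

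The transcription factors themselves moved in different directions. Mitf (ENSMUSG00000035158, chr6:97784013-97998310, plus strand of GRCm39), of which 4T1 cells had little, was at 6.35 and 6.65 CPM in the Mock libraries and 8.86 and 9.52 CPM in the uniSTING libraries. It rose 1.41-fold (log2 fold change 0.50, SE 0.12, edgeR adjusted p = 0.00433), which DESeq2 did not call (adjusted p = 0.0596). Tfeb stood at 4.31 and 4.71 CPM in Mock and at 3.58 and 4.90 CPM in uniSTING, so that the groups overlapped and the gene did not pass (log2 fold change -0.08, SE 0.19, edgeR adjusted p = 0.752). Tfe3, the most abundant of the 3 per kilobase of exon (5.30 CPM per kb in Mock, against 1.05 for Mitf and 0.795 for Tfeb), was at 47.9 and 50.3 CPM in Mock and 45.2 and 42.1 CPM in uniSTING. Its fall of 0.17 on the log2 scale (SE 0.06, edgeR adjusted p = 0.0373) did not pass in DESeq2 (adjusted p = 0.132), when either replicate 2 library was left out (adjusted p = 0.164 for Mock and 0.168 for uniSTING) or after the dependence of fold changes on exon length (the length trend) was removed (log2 fold change -0.01). Tfec, the fourth gene of the family, had no count. At a floor of 3 counts over a group, its level could be as high as 0.0755 CPM in Mock and 0.0688 CPM in uniSTING, counting error only.

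Among the lysosomal proteases and hydrolases, 6 of 10 tested genes rose and none fell (median log2 fold change 0.22). Ctsl (ENSMUSG00000021477, chr13:64507151-64518704, minus strand of GRCm39) encodes the cysteine protease cathepsin L and was in counts the most abundant gene of the list. It was at 765 and 775 CPM in Mock and 1044 and 1028 CPM in uniSTING, with both uniSTING libraries above both Mock libraries. It rose 1.34-fold (log2 fold change 0.43, SE 0.02, edgeR adjusted p = 5.07e-09). The aspartic protease gene Ctsd rose 1.21-fold (log2 fold change 0.28, and 0.16 with the length trend removed), the cysteine protease gene Ctsb 1.19-fold and the carboxypeptidase gene Ctsz 1.15-fold, and 2 glycosidase genes at lower levels rose more, Neu1 (sialidase) 1.34-fold and Gla (alpha-galactosidase A) 1.32-fold. The call of Gla was lost with DESeq2 (adjusted p = 0.0733), and that of Ctsz with the length trend removed (log2 fold change -0.003). Psap, the precursor of the saposins that help hydrolases act on lipids, was the second most abundant hydrolase group gene in counts and did not pass, at 361 and 353 CPM in Mock and 354 and 342 CPM in uniSTING, so that the groups overlapped. With the length trend removed it was lower in uniSTING by 0.12 on the log2 scale (edgeR adjusted p = 0.00255). Ctsa, Glb1 (beta-galactosidase) and Hexa (a beta-hexosaminidase subunit) did not pass either, with log2 fold changes of 0.06, -0.08 and 0.19. Ctss had 6 and 11 counts in the replicate 1 libraries of Mock and uniSTING and none in the replicate 2 libraries. The macrophage marker Lyz2 had the same pattern of libraries, while the macrophage marker Cd14 was counted in every library. Any part of other cells in the Ctss counts was not tested.

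Exons of Ctsb overlap Fdft1, an abundant gene on the other strand, over 774 bases, and those of Ctsd overlap Gm49369 on the same strand over 34.4% of the Ctsd length. The counts were made without strand and with no option for reads that overlap several genes. Reads that match both genes of a pair alike therefore count for neither, and their number is not known here. Gm49369 was at 0 counts in all 4 libraries, a value that such uncounted reads do not enter.

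Of 6 genes for lysosomal membrane and lipid transport proteins, 4 rose, none fell and 2 did not pass, with a median of 0.19. Npc2, which encodes the soluble cholesterol carrier of the lysosome lumen, was at 190 and 191 CPM in Mock and 262 and 254 CPM in uniSTING, and rose 1.35-fold (log2 fold change 0.44, SE 0.03, edgeR adjusted p = 1.54e-07). Npc1, the membrane protein that takes cholesterol from it, did not pass (log2 fold change -0.21, SE 0.11, edgeR adjusted p = 0.125). Npc1 is a long gene (11.3 kb), and with the length trend removed its value was 0.0067. Without uniSTING replicate 1 it passed as lower (-0.30, edgeR adjusted p = 0.0473). Lamp2, a major glycoprotein of the lysosomal membrane, rose 1.25-fold from 152 and 149 CPM to 186 and 188 CPM (log2 fold change 0.32, and 0.49 with the length trend removed). Lamp1, its relative and the most abundant of the 47 genes per kilobase (206 CPM per kb in Mock), was at 555 and 549 CPM in Mock and 609 and 599 CPM in uniSTING. That rise of 0.13 on the log2 scale became 0.04 and did not pass with the length trend removed (edgeR adjusted p = 0.0838). The calcium channel gene Mcoln1 rose 1.20-fold (edgeR adjusted p = 0.0151), but neither DESeq2 (adjusted p = 0.0532) nor the fit without Mock replicate 2 (adjusted p = 0.0945) called it. Scarb2, the receptor that carries glucocerebrosidase to the lysosome, did not pass, with a log2 fold change of -0.02.

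**Figure D2:**
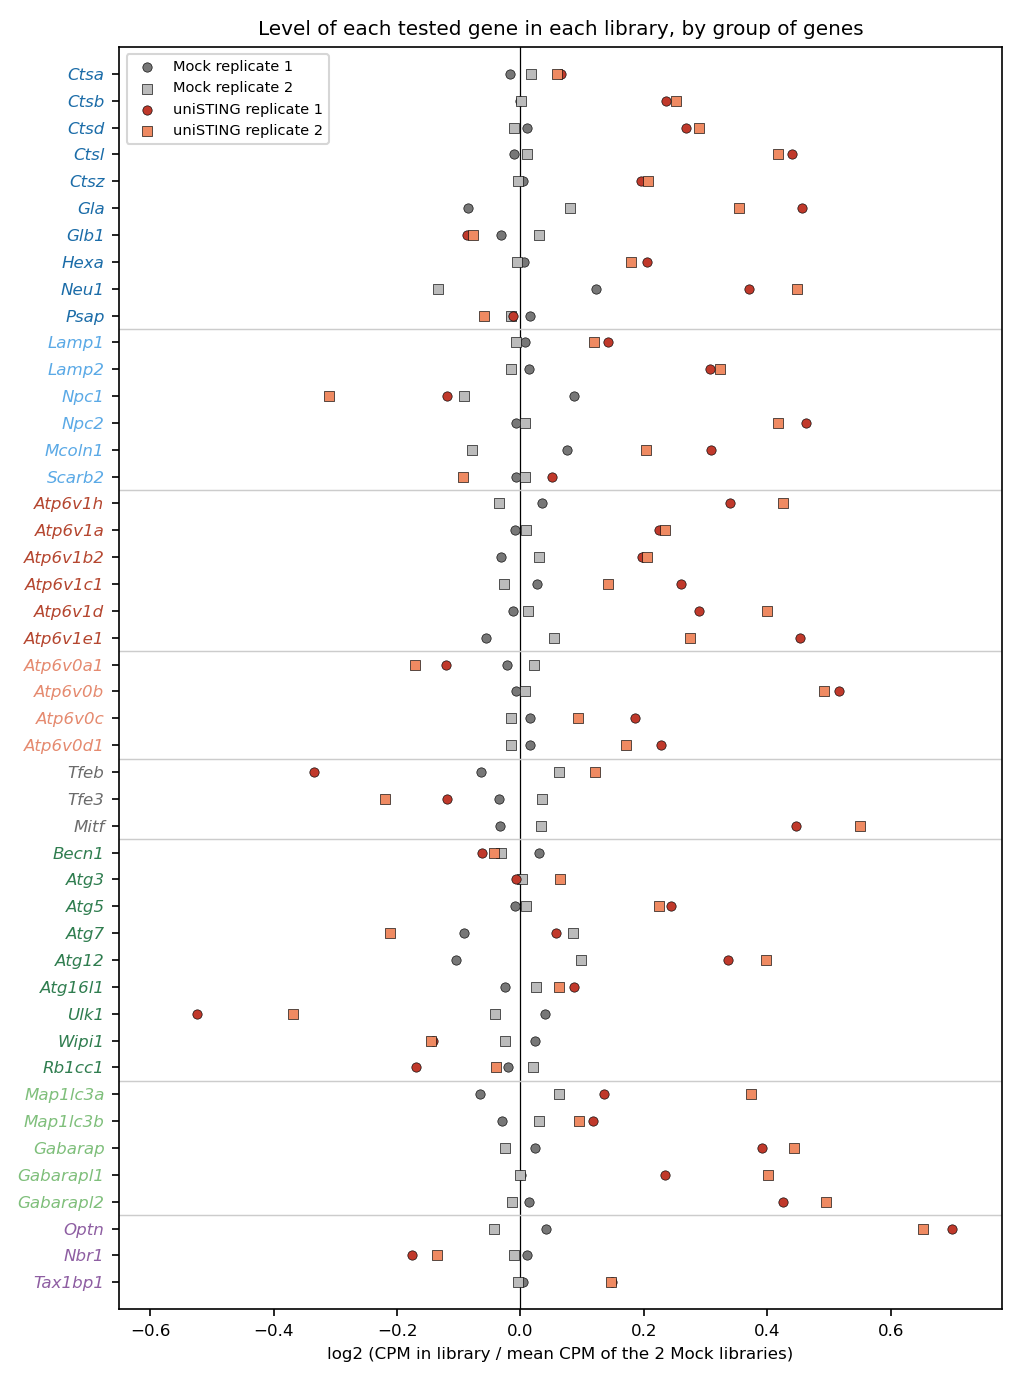
Level of each of the 46 tested genes in each library, as log2 of its CPM over the mean CPM of the 2 Mock libraries (horizontal axis), with genes in rows, coloured and separated by group. Circles are replicate 1 and squares replicate 2, grey for Mock and red or orange for uniSTING; for Optn, Atp6v0b and Ctsl both uniSTING libraries lie to the right of both Mock libraries, and for Ulk1 both lie to the left.

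All 6 listed subunits of the V1 sector rose, by 0.20 to 0.39 on the log2 scale (median 0.29). Their summed level was 496 and 502 CPM in Mock and 600 and 593 CPM in uniSTING. Atp6v1h, a regulatory subunit, was at 54.6 and 52.0 CPM in Mock and 67.5 and 71.6 CPM in uniSTING, and rose by 0.39 (SE 0.05, edgeR adjusted p = 7.83e-05). The stalk genes Atp6v1e1 and Atp6v1d rose 1.28-fold and 1.27-fold. The catalytic subunit gene Atp6v1a, its nucleotide-binding partner Atp6v1b2, and Atp6v1c1, which links the sector to V0, rose 1.17-fold, 1.15-fold and 1.15-fold. These 6 calls held in all 13 alternative analyses.

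The V0 sector was less uniform. Atp6v0b (ENSMUSG00000033379, chr4:117741523-117744530, minus strand of GRCm39), a subunit of its proton-carrying ring, was at 73.3 and 74.0 CPM in Mock and 105 and 104 CPM in uniSTING, a 1.42-fold rise (log2 fold change 0.50, SE 0.03, edgeR adjusted p = 3.75e-07) and the second largest of the list. The main ring subunit gene Atp6v0c did not pass (0.14, SE 0.06, edgeR adjusted p = 0.0752) except without uniSTING replicate 2 (edgeR adjusted p = 0.0375) or with the replicate block (edgeR adjusted p = 0.0437), nor did Atp6v0a1, an isoform of the large membrane subunit (-0.15, SE 0.07, edgeR adjusted p = 0.0931). Atp6v0d1, which joins V0 to the central stalk, rose by 0.20 (edgeR adjusted p = 0.0225). That call did not survive leaving out Mock replicate 1 or 2 (adjusted p = 0.0770 and 0.0696) or uniSTING replicate 1 (adjusted p = 0.0547). It was lost too with DESeq2 (adjusted p = 0.110) and with the length trend removed (log2 fold change 0.03).

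The rest of the pump was read from 14 further V-ATPase genes, of which 10 were tested. Atp6v1f went up from a mean of 72.6 ± 0.277 CPM to 104 ± 4.31 CPM (SD, n = 2 per group), Atp6v1g1 from 109 ± 4.11 to 153 ± 6.06 CPM and Atp6v0e from 65.8 ± 0.635 to 85.5 ± 4.85 CPM. With the length trend removed, the log2 fold changes of the short genes Atp6v1f and Atp6v1g1 went from 0.51 to 0.27 and from 0.49 to 0.25. Over all subunits of a sector, 8 of 10 tested V1 genes rose and 1 fell, and 3 of 8 tested V0 genes rose and none fell. Of all tested genes, 24.9% rose and 25.4% fell. With the length trend removed, 8 V1 genes were higher and 1 lower, and 2 V0 genes were higher and none lower. In that fit 23.4% of all tested genes were higher and 22.2% lower. Both accessory subunit genes, Atp6ap1 and Atp6ap2, rose in the main test. Whether the sectors differ was not tested. The V1 gene that fell was Atp6v1g2, at 20 and 22 counts in Mock and 10 and 8 counts in uniSTING. Where a subunit has isoforms, 1 made up most of the transcript. Among the large membrane subunits, Tcirg1 (isoform a3) was at 18.6 CPM per kb in Mock, Atp6v0a2 at 5.81 and Atp6v0a1 at 4.40, and none of the 3 passed; Atp6v0a4 had 5 and 5 counts in Mock and none in uniSTING, too few to be tested. Atp6v1b1 and Atp6v1e2 had no count in any library, and Atp6v0d2 had 2 in all. Atp6v0c has processed pseudogene copies, and its counts of uniquely mapped reads are uncertain.

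**Figure D3:**
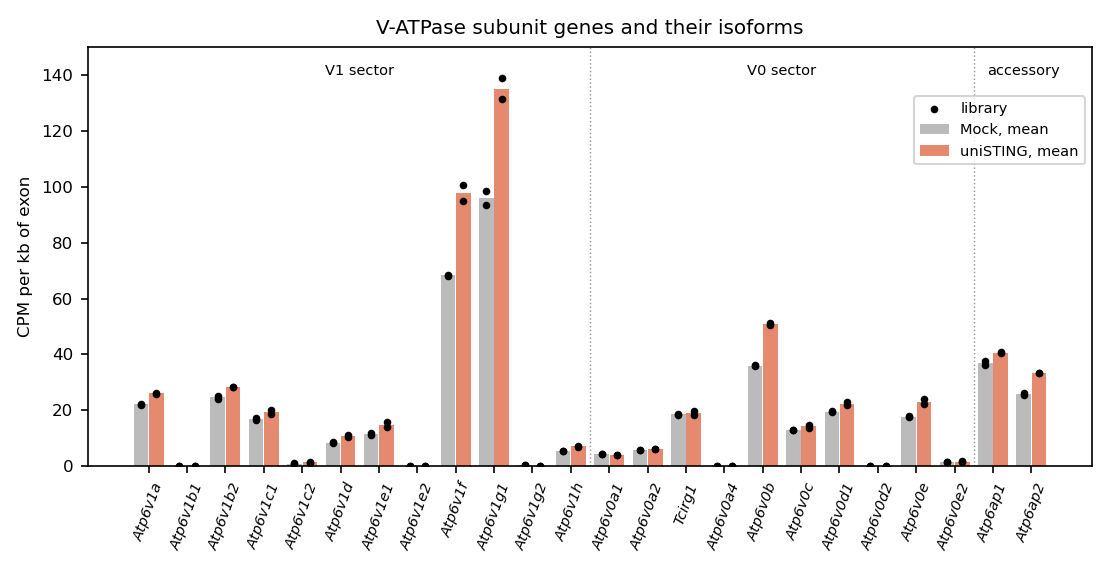
CPM per kilobase of exon (vertical axis) of 24 V-ATPase genes in Mock and uniSTING, grouped by sector; bars are means of 2 libraries and dots are single libraries. Atp6v1g1 and Atp6v1f stand highest, and Tcirg1 is the highest of the 4 large membrane subunit genes in both groups.

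The genes that start autophagy and conjugate its ubiquitin-like proteins went both ways, with 2 of 9 higher, 2 lower and 5 that did not pass (median -0.05). Each direction was 22.2% of the group, close to the 24.9% and 25.4% over all tested genes. Ulk1 (ENSMUSG00000029512, chr5:110932354-110957963, minus strand of GRCm39), the kinase that starts autophagosome formation, was at 41.6 and 39.4 CPM in Mock and 28.2 and 31.4 CPM in uniSTING. Both uniSTING libraries were below both Mock libraries, and the gene fell by 0.44 on the log2 scale (SE 0.07, edgeR adjusted p = 5.00e-04), the largest fall of the list and a call held in all 13 alternative analyses, at -0.25 with length and GC trends removed. Wipi1, a phosphoinositide-binding protein of the growing membrane, was at 51.9 and 50.2 CPM in Mock and 46.3 and 46.2 CPM in uniSTING. Its call (log2 fold change -0.14, SE 0.05, edgeR adjusted p = 0.0490) was at the threshold and was lost in 9 of 13 alternatives, each of the 4 single-library omissions among them. Atg12 rose by 0.36 (edgeR adjusted p = 0.00308) and Atg5, its conjugation partner, by 0.23 (edgeR adjusted p = 0.00196). Atg5 did not pass with the length trend removed (0.12, edgeR adjusted p = 0.0639), while Atg16l1, the third member of that complex, did not pass at first (0.07) and was higher after that removal (0.25, edgeR adjusted p = 0.00500). Becn1, Atg3, Atg7 and Rb1cc1 did not pass, with log2 fold changes of -0.05, 0.03, -0.08 and -0.10. Rb1cc1, a long gene of 14.7 kb that encodes the ULK1 partner FIP200, was higher in uniSTING with the length trend removed (0.20, edgeR adjusted p = 0.0103) and lower without uniSTING replicate 2 (-0.17, edgeR adjusted p = 0.0246). Exons of Cntd1 on the other strand overlap 43.9% of the Becn1 length, and Cntd1 had at most 4 counts in a library.

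The LC3 and GABARAP family, which is attached to lipid on autophagosomes, held 4 genes that rose and 1 that did not pass, with a median of 0.32. Gabarapl2 (ENSMUSG00000031950, chr8:112667335-112680244, plus strand of GRCm39) was at 52.1 and 51.1 CPM in Mock and 69.3 and 72.8 CPM in uniSTING, and rose 1.38-fold (log2 fold change 0.46, SE 0.05, edgeR adjusted p = 1.25e-05). Gabarap, the family's most abundant gene per kilobase (57.0 CPM per kb in Mock), was at 107 and 103.4 CPM in Mock and 138 and 143 CPM in uniSTING, and rose 1.34-fold (log2 fold change 0.42, SE 0.03, edgeR adjusted p = 1.32e-06). Gabarapl1 was at 29.7 and 29.7 CPM in Mock and 35.0 and 39.2 CPM in uniSTING (1.25-fold, edgeR adjusted p = 0.00378). In each of these GABARAP genes both uniSTING libraries lay above both Mock libraries. Map1lc3b, the LC3 form most used as an autophagy marker, moved less, from 110 and 115 CPM to 122 and 120 CPM (log2 fold change 0.10, SE 0.03, edgeR adjusted p = 0.0180). Without Mock replicate 1 the gene did not pass (log2 fold change 0.07, adjusted p = 0.172), nor did it in DESeq2 (adjusted p = 0.150). Map1lc3a was at 9.19 and 10.0 CPM in Mock and 10.6 and 12.5 CPM in uniSTING and did not pass (0.26, SE 0.11, edgeR adjusted p = 0.0751), but did so without uniSTING replicate 1 (0.37, edgeR adjusted p = 0.0104). The GABARAP genes are short (1.84 to 2.33 kb) and Map1lc3b is 7.52 kb long. With the length trend removed, Gabarapl2, Gabarap and Map1lc3b were higher by 0.35, 0.26 and 0.22, and Gabarapl1 no longer passed (0.18, edgeR adjusted p = 0.0727).

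Of the autophagy receptors, Optn (ENSMUSG00000026672, chr2:5025453-5068862, minus strand of GRCm39) had the largest rise of the 47 genes. OPTN is a ubiquitin-binding receptor for mitochondria and bacteria and also a partner of the kinase TBK1, which acts downstream of STING. It was at 20.1 and 18.96 CPM in Mock and 31.7 and 30.7 CPM in uniSTING, a 1.60-fold rise (log2 fold change 0.68, SE 0.07, edgeR adjusted p = 1.52e-05) that was 0.65 with the length trend removed. Its promoter window held neither CACGTG nor the spaced GAAA pair. Tax1bp1, a receptor for protein aggregates, rose by 0.15 from 148 and 147 CPM to 163 and 163 CPM (SE 0.03, edgeR adjusted p = 6.89e-04), and by 0.33 with the length trend removed. Nbr1, another aggregate receptor, fell by 0.15 from 93.2 and 91.8 CPM to 81.9 and 84.2 CPM (SE 0.03, edgeR adjusted p = 0.00287), and the gene did not pass with the length trend removed (-0.06, edgeR adjusted p = 0.186).

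Gene length moved with these results. Across all 12972 tested genes, Spearman's rho between exon length and log2 fold change was -0.36, and across the 46 listed genes it was -0.34. Genes are not independent replicates, and all points share the same 4 libraries. All tested genes were split by length into 3 equal sets. In the short set (up to 2.96 kb) 36.1% rose and 8.30% fell. Of the 4324 genes in the middle set, 1081 rose and 982 fell. In the long set (above 5.59 kb) 13.5% rose and 45.1% fell. Of the listed genes in the same ranges, 9 of 12 short ones rose and none fell, 7 of 12 in the middle rose and 1 fell, and 11 of 22 long ones rose and 3 fell. The listed genes were not short, with a median length of 5.37 kb against 4.15 kb for all tested genes.

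The trend at the lengths of the 46 genes ran from -0.30 (Rb1cc1) to 0.23 (Map1lc3a). With it removed, 24 of the 46 genes were higher, 2 lower (Ulk1 and Psap) and 20 did not pass, where 23.4% of all tested genes were higher and 22.2% lower, and the list's median was 0.19. The groups shifted unequally. The V1 median went from 0.29 to 0.33 and that of the autophagy receptors from 0.15 to 0.33, while the median of the LC3 and GABARAP genes went from 0.32 to 0.22, that of the hydrolases from 0.22 to 0.12 and that of the V0 sector from 0.17 to 0.06. V1 genes were longer, with a median of 5.45 kb, than V0 genes, with a median of 2.72 kb. Removing a GC trend as well gave a list median of 0.21.

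**Figure D4:**
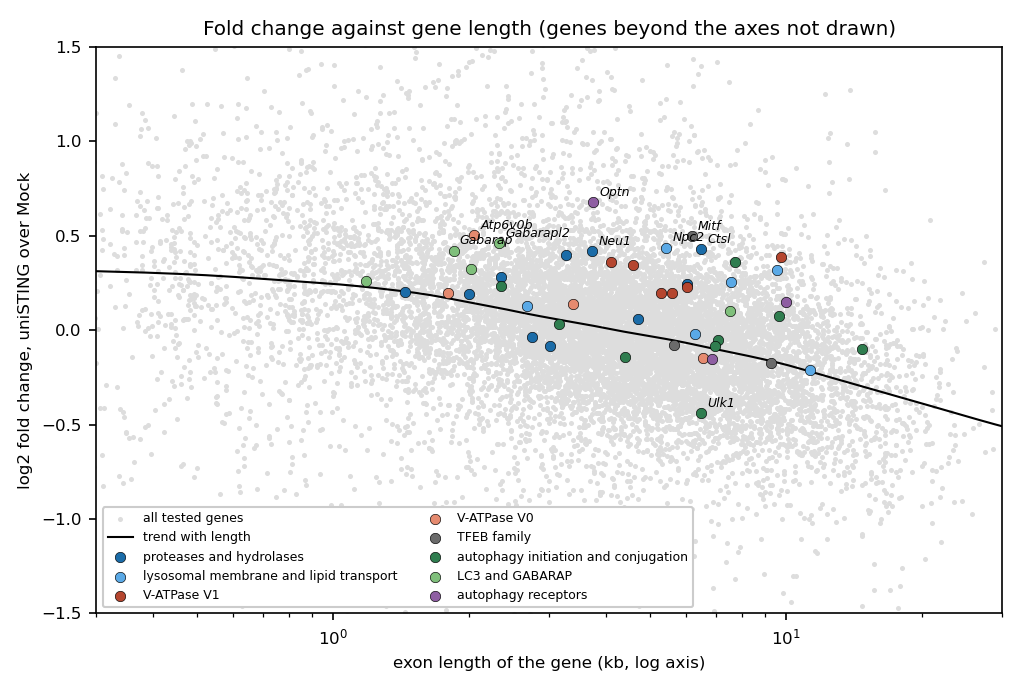
Log2 fold change of uniSTING over Mock (vertical axis) against exon length in kb (log axis); grey dots are all tested genes within the axes, the line is the lowess trend, and coloured points are the 46 tested listed genes by group. Long genes lie lower in general, and 36 of the 46 listed genes lie above the line, as do 50.8% of all tested genes.

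The other genes of these pathways were read from 4 further lists. Of 58 tested lysosomal genes outside the 47, 23 rose, 13 fell and 22 did not pass (39.7% higher and 22.4% lower, against 24.9% and 25.4% of all tested genes, median 0.14). With the length trend removed, 14 of the 58 were higher and 12 lower (median 0.05). After that removal 23.4% of all tested genes were higher and 22.2% lower, so these counts were near the background. Ctsh, a cysteine protease, averaged 97.5 ± 2.90 CPM in Mock and 141 ± 0.357 CPM in uniSTING (a rise of 0.53 on the log2 scale, SE 0.03, edgeR adjusted p = 1.74e-07). Cd68 and the thioesterase gene Ppt2 rose 1.44-fold and 1.42-fold. Cd68 is also a macrophage marker, counted 147 and 142 times in the Mock and 201 and 260 times in the uniSTING libraries, and any part of other cells in its rise was not tested. Its call was lost without Mock replicate 2 (adjusted p = 0.0759) and with the length trend removed (adjusted p = 0.0827). The call of Ppt2 was lost without Mock replicate 1 (adjusted p = 0.0622) and with DESeq2 (adjusted p = 0.0607). Igf2r, the large mannose 6-phosphate receptor that sorts hydrolases to lysosomes, averaged 201 ± 0.194 CPM in Mock and 144 ± 0.842 CPM in uniSTING and so fell by 0.48 on the log2 scale (SE 0.02, edgeR adjusted p = 6.92e-08), the lipid transporter gene Abca2 fell by 0.56 and the sulfamidase gene Sgsh by 0.44. The value of Igf2r was -0.32 with the length trend removed.

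Of 34 autophagy genes outside the 47, 9 rose, 13 fell and 12 did not pass, with a median of -0.01. The share that rose, 26.5%, was near the 24.9% of all tested genes, and 38.2% fell, against 25.4%. With the length trend removed, 9 of the 34 were higher and 8 lower (median 0.04). In that fit 23.4% of all tested genes were higher and 22.2% lower, so these counts were near the background. Bnip3, a mitochondrial autophagy receptor, averaged 40.6 ± 2.90 CPM in Mock and 113 ± 5.85 CPM in uniSTING (a rise of 1.48 on the log2 scale, SE 0.05, edgeR adjusted p = 4.51e-09), more than any of the 47 genes, and its relative Bnip3l rose 1.61-fold. Vamp8, which helps autophagosomes fuse with lysosomes, rose 1.70-fold. The tethering factor gene Epg5 fell by 0.85, the lipid transfer gene Atg2a by 0.66 and Atg13, a subunit of the ULK1 complex, by 0.55. Seen with its partners, a grouping made after the values were known, the ULK complex had Ulk1, Ulk2 and Atg13 lower (-0.44, -0.33 and -0.55), Atg101 higher (0.31) and Rb1cc1 not past the test. With the length trend removed the 3 lower genes still passed, and Atg101 no longer did (0.12). Rb1cc1 was higher in that fit (0.20, edgeR adjusted p = 0.0103).

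Of 20 tested regulators of mTORC1 and TFEB, 8 rose, 6 fell and 6 did not pass (median -0.04), where 24.9% of all tested genes rose and 25.4% fell. With the length trend removed, 6 were higher and 5 lower (median 0.075), where 23.4% of all tested genes were higher and 22.2% lower. The 8 that rose in the main test included all 5 subunits of Ragulator, the lysosomal scaffold of mTORC1. Lamtor5 rose by 0.48 (SE 0.06, edgeR adjusted p = 4.75e-05), Lamtor1 by 0.43 and Lamtor3 by 0.37. With the length trend removed 3 of the 5 were still higher, and Lamtor5 went to 0.22. The mTOR inhibitor gene Deptor averaged 23.1 ± 0.00991 CPM in Mock and 12.9 ± 2.20 CPM in uniSTING (log2 fold change -0.83, SE 0.10, edgeR adjusted p = 5.33e-05). Fnip2, a partner of folliculin, fell by 0.52 and Tsc2, which restrains mTORC1, by 0.51. With the length trend removed, Deptor was at -0.68, Fnip2 at -0.37 and Tsc2 at -0.34.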

How the data were processed

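The deposited values are raw counts per gene. Per the file headers, featureCounts 2.0.1 assigned uniquely mapped reads to the exons of each Ensembl 103 gene (GRCm39), with its paired-read option, no strand setting and no option for reads that overlap several genes. HISAT2 is the aligner in the submitters' processing notes, its version not given in the sources used here. Exon lengths are those of the deposited tables. An identifier table named 52093 of the 53647 genes.

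The main test was edgeR 4.0.16 (R 4.3.3): TMM normalization, genes kept by group with a minimum count of 10 and a minimum total of 15, a quasi-likelihood fit (glmQLFit, glmQLFTest) with group as its only term, and Benjamini-Hochberg adjusted p-values over 12972 genes, called under 0.05. Standard errors derive from the F statistic and are approximate. CPM uses TMM-scaled library sizes. An SD over 2 libraries is a rough value and can lie below counting noise, as for Deptor in Mock (407 and 510 counts). Fold changes within 1 replicate number use a prior count of 2. The length trend was a lowess curve (span 0.3) of each library's deviation in log2 CPM against log2 exon length, entered as an offset. Alternatives were DESeq2's size factors, other count filters, DESeq2 1.42.0, limma-voom (limma 3.58.1), the replicate number as a block, length and GC trends removed, and each library left out. The fit was also run on simulated counts. These were drawn at the fitted spread, with no length trend and no deviations shared by same-numbered libraries. That run therefore cannot speak to either feature of the data. Values in each library, fold change and test are given for the 4 largest rises and falls of the 47 genes, the TFEB family and the LC3 and GABARAP family. Each further list contributes up to 3 called genes with the largest rise and 3 with the largest fall (mean CPM of at least 1, groups not overlapping). Other genes with such detail were chosen after their values were seen. The 47 genes, the lists and the tests were chosen with earlier results of these data known.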

Additional observations from a re-analysis of the deposited data

How the results depend on the processing

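Of the 31 calls among the 47 genes, 18 rises and the fall of Ulk1 passed in all 13 alternatives. The number of genes that fell, 4, was 2 with DESeq2, 2 with the length trend removed, 2 with length and GC trends removed and from 2 to 4 with 1 library left out. The list's median was 0.18 in the replicate 2 libraries alone, a comparison added after seeing the data, and ran from 0.18 to 0.20 with 1 library left out. Some directions changed, mostly with the length or GC trends removed, and the cause was not tested. The TFEB family median of -0.08 was 0.16 with length and GC trends removed, 0.057 in the replicate 2 libraries alone and from -0.15 to 0.12 with 1 library left out. The initiation and conjugation median of -0.05 was 0.052 with the length trend removed, 0.043 with length and GC trends, 0.053 with the replicate block and the length trend, and from -0.037 to 0.011 with 1 library left out. Ctsz was at -0.0032 with the length trend removed, with and without the replicate block. Tfe3 was at 0.045 with length and GC trends removed, and Rb1cc1 at 0.20 with the length trend removed, with and without the block. Among genes that passed in neither fit, Npc1, Scarb2, Becn1, Atg3 and Atg7 also changed sign with the length trend removed, and Tfeb, Scarb2, Becn1, Atg3, Atg7 and Rb1cc1 with length and GC trends removed. With 1 library left out, Atg7, Tfeb, Scarb2 and Atg3 did so. With length and GC trends removed, Mcoln1 went to 0.41, Abca2 to -0.34 and Atg2a to -0.41.

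Same-numbered libraries of the 2 groups deviated together (correlation 0.661 over 10836 genes), but the labels give the numbers no meaning beyond preparations. With the replicate number as a block, 28 genes of the list were higher and 4 lower, the added gene being Atp6v0c (adjusted p = 0.0437), and no other call of the list changed. Floors cover counting error only, and small changes of genes with few counts, such as Tfeb and Hexa, were not detectable at this depth.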
